A study of Mus musculus with 6 samples.

Results

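Translation initiation and elongation factors are the proteins that start and drive protein synthesis on the ribosome, and 70 of the 21936 genes measured in these macrophages belong to this group. They were chosen by symbol, as every gene whose name begins with Eif or Eef apart from Eif2ak2 and Eif2s3y, a rule that uses no expression value. Of these genes 55 are named Eif and 15 are named Eef. Some of them are regulators of the factors (kinases, inhibitors and methyltransferases) rather than factors themselves. Eif4a3 is a helicase of the exon junction complex.

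RNA was sequenced from sorted macrophages of mice kept for 4 months on high-fat food. The 3 CKO libraries came from ALKBH5flox/flox, Lyz2-Cre, APOE-/- mice, in which Cre is expressed from the myeloid Lyz2 locus and is meant to delete the RNA demethylase Alkbh5. The 3 WT libraries came from ALKBH5flox/flox, APOE-/- mice without Cre. Both groups therefore carried the loxP-flanked Alkbh5 and the Apoe null genotype, and the comparison asks what loss of Alkbh5 in myeloid cells changes. Nothing in the labels ties a library to an animal of its own. The p-values therefore reflect the variation among these 6 libraries, part or all of which may be technical.

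In initiation, eIF2 brings the initiator tRNA to the small ribosomal subunit, eIF3 holds the complex together, and eIF1 and eIF1A select the start codon. The eIF4F complex (eIF4E, eIF4G and eIF4A) binds the mRNA cap, and 4E-BP proteins block it by occupying eIF4E. During elongation eEF1A delivers aminoacyl-tRNA and eEF2 moves the ribosome forward. Macrophages depend on this machinery for the fast synthesis of cytokines, and several factors are encoded by TOP mRNAs, which start with a C followed by a run of pyrimidines and are translated under control of the kinase mTOR and the protein LARP1.

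The libraries held 15422154 to 17802617 assigned reads in the CKO group and 16660206 to 18418903 in the WT group. All 10 macrophage markers looked up, among them Csf1r, Adgre1 and Cd68, were above 1 FPKM. Of these 5 were higher and 5 lower in CKO, such as Fcgr1 (235 ± 5.77 FPKM in CKO and 28.8 ± 2.42 FPKM in WT) and Mrc1 (1.88 ± 0.118 FPKM in CKO and 29.7 ± 0.853 FPKM in WT). FPKM are reads per length of gene, scaled to the reads of the library. Alkbh5 averaged 8.75 ± 0.350 FPKM in the libraries labelled CKO and 3.87 ± 0.0879 FPKM in those labelled WT (SD, n = 3 each), against the label, and reads over the whole gene cannot show a missing exon. Apoe averaged 95.0 ± 4.69 FPKM in CKO and 1635 ± 29.3 FPKM in WT, although both groups are labelled null, and a whole-gene count does not show whether the message is intact. Lyz2, whose locus carries Cre in the CKO mice and which is also 1 of the macrophage markers, averaged 6556 ± 211 FPKM in CKO and 15116 ± 992 FPKM in WT. Whether the labels are right was not tested. Directions below therefore refer to the libraries as labelled. Markers of other cell types and of cycling cells also differed. Over 10 neutrophil markers the summed level was 102 to 115 FPKM in the CKO libraries and 653 to 937 FPKM in the WT libraries, with 7 of 7 tested markers lower in CKO, although Elane, Ngp and Ltf passed the filter through WT alone and had to be lower. S100a8 and S100a9 made up most of it, Elane, Ngp and Ltf were at or near 0 in CKO, and Ly6g was at or near 0 in both groups. All 7 proliferation markers were lower in CKO as well, of which Top2a, Ccnb1, Mcm2 and Cdk1 passed the filter through WT alone, with a summed level of 53.0 to 59.5 FPKM against 94.6 to 96.6 FPKM in WT. T cell markers summed to 0.547 to 0.727 FPKM in CKO and 3.78 to 4.62 FPKM in WT, most of it from Cd4, which macrophages can also express, and Cd3e was below 0.1 FPKM on average in both groups. B cell markers summed to 0.984 to 1.78 FPKM in CKO and 2.06 to 3.67 FPKM in WT. The part of these cells in the results below was not tested, and in such bulk samples fewer cells of a type and less RNA per cell cannot be told apart.

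The start regions of 11 members are shown because the factors encoded by TOP mRNAs fell together in CKO. The genes shown were chosen after their values and runs had been seen. Each line gives 50 bases of the sense strand, 20 before and 30 from the gene start that RefSeq lists (build GRCm38.p6, the mm10 assembly of the files). Capitals mark a C followed by at least 5 more pyrimidines. The first 5 genes are on the list of TOP mRNA factors used here and were lower in CKO. The next 3, Eif2s3x, Eif3l and Eif3k, were lower too but are not on that list, and the last 3, Eif1, Eif1ax and Eif1b, were higher. Over all members with a listed start, a run was present in 9 of 20 lower ones outside that list and in 6 of 18 higher ones. The genes shown are thus not typical of those groups.
Eef1a1 (chr9:78481695-78481744, minus strand): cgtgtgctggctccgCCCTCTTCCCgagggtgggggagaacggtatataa
Eef2 (chr10:81176611-81176660, plus strand): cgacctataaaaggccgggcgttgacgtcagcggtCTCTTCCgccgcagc
Eif4b (chr15:102073753-102073802, plus strand): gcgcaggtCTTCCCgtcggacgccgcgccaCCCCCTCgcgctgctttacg
Eif3f (chr7:108934395-108934444, plus strand): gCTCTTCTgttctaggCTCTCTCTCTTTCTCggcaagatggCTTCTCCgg
Eef1b2 (chr1:63176811-63176860, plus strand): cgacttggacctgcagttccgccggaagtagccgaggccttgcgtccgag
Eif2s3x (chrX:94212622-94212671, minus strand): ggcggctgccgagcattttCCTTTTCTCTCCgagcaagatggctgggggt
Eif3l (chr15:79075203-79075252, plus strand): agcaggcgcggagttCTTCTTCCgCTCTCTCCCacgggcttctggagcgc
Eif3k (chr7:28981859-28981908, minus strand): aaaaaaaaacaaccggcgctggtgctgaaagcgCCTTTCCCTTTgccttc
Eif1 (chr11:100319929-100319978, plus strand): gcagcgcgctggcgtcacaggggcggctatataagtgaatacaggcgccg
Eif1ax (chrX:159372158-159372207, plus strand): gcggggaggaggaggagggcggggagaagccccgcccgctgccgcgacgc
Eif1b (chr9:120492586-120492635, plus strand): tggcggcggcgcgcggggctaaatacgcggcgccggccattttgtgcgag
The longest runs were 15 bases in Eif3f, 12 in Eif2s3x and 11 in Eif3k, and the windows of Eef1b2, Eif1, Eif1ax and Eif1b held none. In the windows of Eef1a1 and Eif1 a TATA-like stretch follows the listed start, so their transcripts may begin further on. In the window of Eif1b an AT-rich stretch spans the listed start, and the same may hold there. The run shown for Eef1a1 may then lie outside the mRNA, and the lack of a run in Eif1 and Eif1b says little.

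Translation factors changed in both directions. Lower in CKO were 5 of 7 genes grouped by name as elongation factors and 9 of 13 eIF3 subunits. Higher were 4 of 5 genes grouped as start-codon factors and relatives, and 4 of 5 eIF2B subunits. Of the 70 genes 64 were tested, having at least 1 FPKM in at least 3 libraries. By limma on log2(FPKM + 1), at an adjusted p under 0.05, 22 of these rose and 33 fell in CKO, and 9 were not called. Among all 9953 genes tested 81.1% were called, 30.5% higher and 50.5% lower, so these shares are near the background. The groups did not overlap for 57 of the 64 members, and for 82.5% of all tested genes. The median log2 fold change was -0.21 over the tested members and -0.14 over all tested genes. After median-of-ratios scaling, which moved the median of all genes by 0.14, 27 members were higher and 29 lower, against 39.7% higher and 39.8% lower among all tested genes, and no call turned to the other direction. The fold changes of Eif4a2, Eif3j1 and Eif4e2, which were not called, changed sign. The higher ones made up 40.0% of the members' calls before that scaling and 48.2% after it, and among all tested genes 37.7% before and 49.9% after.

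**Figure D1:**
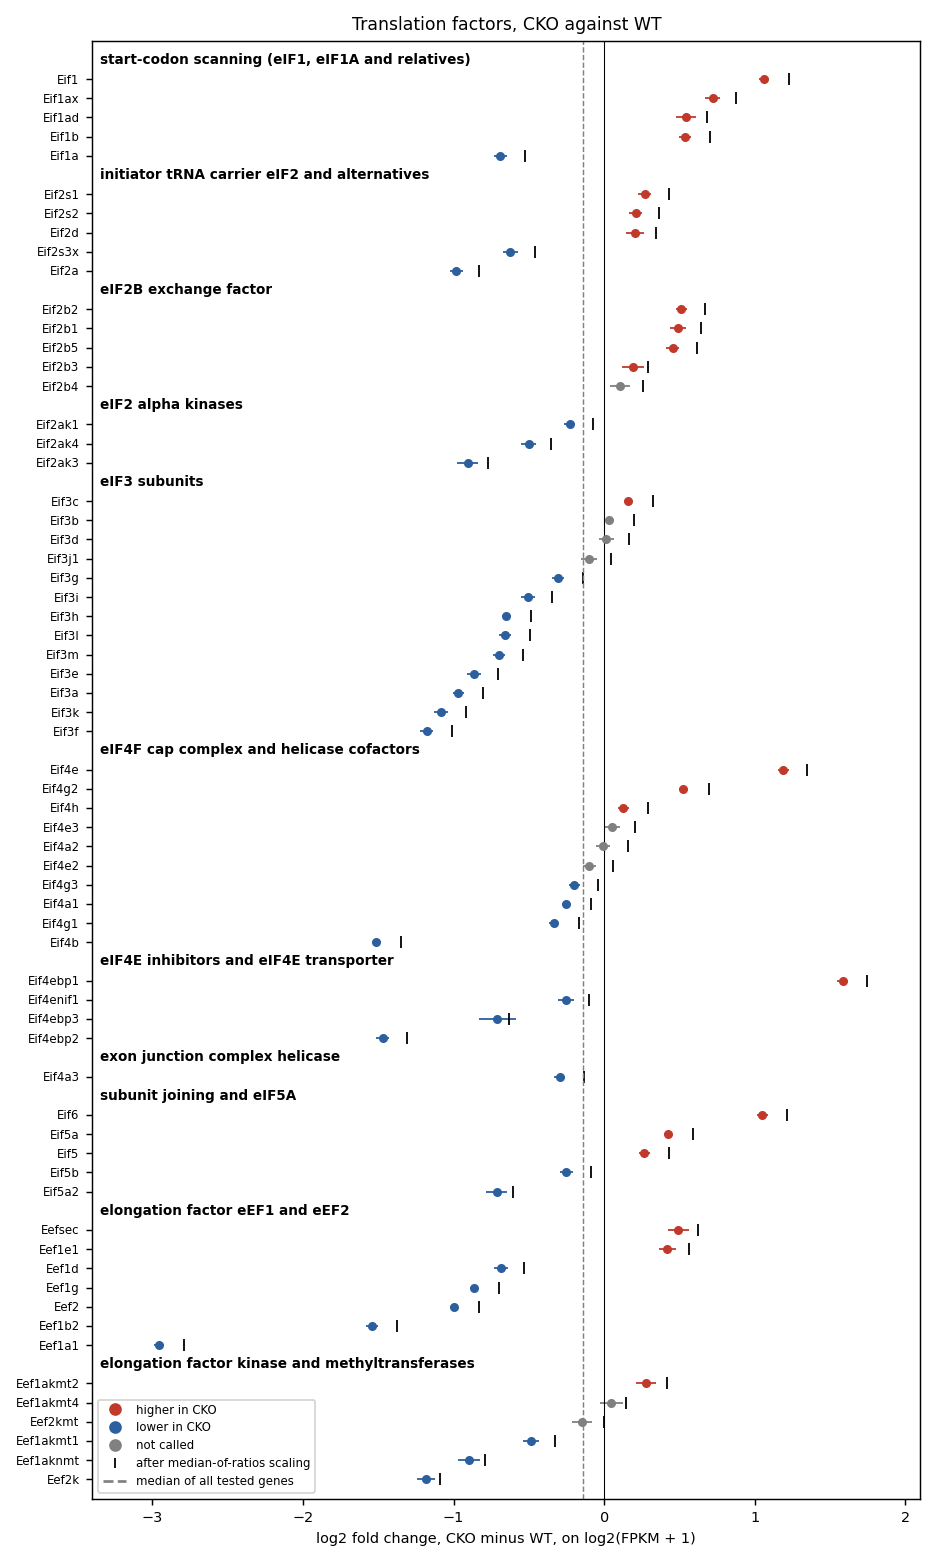
Log2 fold change (CKO minus WT, on log2(FPKM + 1)) of the 64 tested members by role, with bars for the standard error and ticks for the value after median-of-ratios scaling; the dashed line is the median of all tested genes at -0.14. Eef1a1 lies farthest to the left at -2.96 and Eif4ebp1 farthest to the right at 1.58.

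The summed level of all 70 genes was 2686, 2698 and 2745 FPKM in the CKO libraries, against 6162, 6173 and 6055 FPKM in the WT libraries. The CKO sum was thus 0.442 times the WT sum, with no overlap between groups, and the two-sided exact permutation p was 0.1, which is the lower limit for groups of 3. Most of the difference lay in 1 gene. Eef1a1 made up 14.05%, 14.25% and 15.006% of that sum in the CKO libraries and 50.1%, 49.5% and 49.5% in the WT libraries. Without it the sums were 2308 to 2333 FPKM in CKO and 3058 to 3117 FPKM in WT. As a share of all assigned reads the 70 genes took 1.01% ± 0.00450 in CKO and 1.95% ± 0.0186 in WT (SD, n = 3 each).

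**Figure D2:**
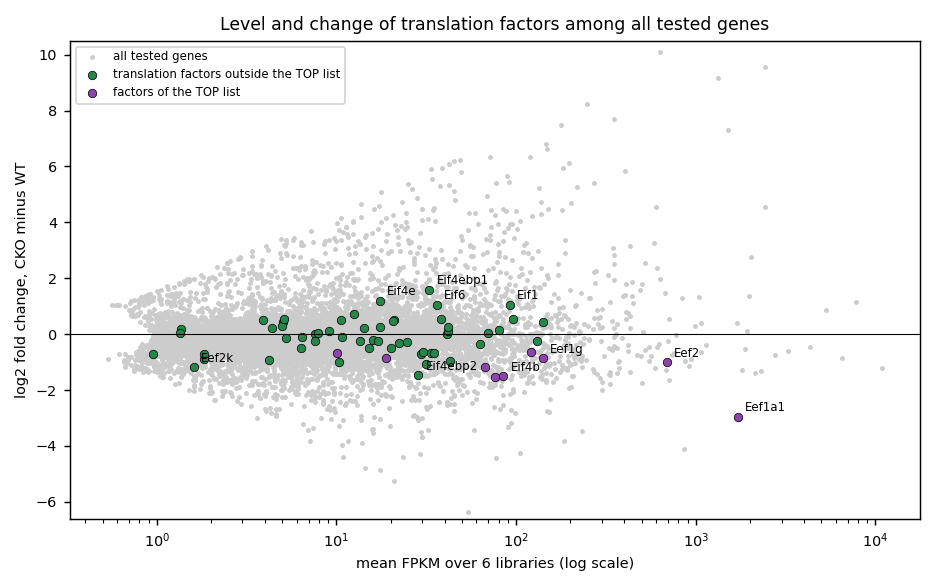
Log2 fold change (CKO minus WT) against the mean FPKM over the 6 libraries on a log axis, for all 9953 tested genes (grey), the factors on the TOP list (purple) and the other translation factors (green). The 9 tested factors of the TOP list lie below 0, and Eef1a1 combines the highest level of any member with the largest fall among them.

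Of the 7 tested genes grouped as elongation factors eEF1 and eEF2 by name 5 fell, among them the member with the largest fall of all. That is 71.4%, against 50.5% of all tested genes. Eef1a1, which delivers aminoacyl-tRNA to the ribosome, had 377, 385 and 412 FPKM in the CKO libraries, against 3089.8, 3057 and 2997 FPKM in the WT libraries. All 3 CKO values were far under the WT values, with the group mean at 12.8% of the WT mean. The gene (chromosome 9, 78478449 to 78489151, mm10) fell by 2.96 on the log2 scale (SE 0.033), at a limma adjusted p of 2.27e-14. By mean FPKM the gene ranked 79 in CKO and 10 in WT among all 21936 genes, and 41 tested genes had a lower fold change. Eef1a1 has many processed copies in the mouse genome, so reads could be split between it and them, which was not tested. Its paralogue Eef1a2, known from neurons and muscle, did not pass the filter, and had 6 reads in the CKO libraries together and 126 in the WT libraries.

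Eef2, the translocase of elongation, had 459.6, 454 and 471 FPKM in CKO, against 918, 948 and 900.1 FPKM in WT. The CKO values were all far under the WT values (log2 fold change -0.998, SE 0.028, limma adjusted p = 3.18e-11; chromosome 10, 81176631 to 81182498). The subunits of eEF1B, the complex that recharges eEF1A with GTP, fell to different degrees. Eef1b2, its catalytic alpha subunit, had 36.8, 40.9 and 37.4 FPKM in CKO, against 112, 116 and 113 FPKM in WT (log2 fold change -1.54, SE 0.041, limma adjusted p = 1.94e-11). Eef1g, the scaffold subunit, averaged 99.4 ± 1.06 FPKM in CKO and 182 ± 3.46 FPKM in WT, a log2 fold change of -0.86. Eef1d, the delta subunit, changed by -0.69. None of these 3 genes had overlapping groups, and neither did 82.5% of all tested genes. The remaining members of this role rose. Eef1e1, a scaffold of the multi-synthetase complex despite its name, averaged 5.92 ± 0.448 FPKM in CKO and 4.17 ± 0.115 FPKM in WT (log2 fold change 0.42). Eefsec, which carries selenocysteine tRNA, averaged 4.71 ± 0.382 FPKM in CKO and 3.06 ± 0.263 FPKM in WT (log2 fold change 0.49).

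Of 6 tested enzymes that modify these factors 1 rose and 3 fell. Eef2k, the kinase that inhibits eEF2, had 0.607, 0.534 and 0.652 FPKM in CKO, against 2.54, 2.66 and 2.68 FPKM in WT. That is 224 reads over the CKO libraries and 1032 over the WT libraries. Eef2k fell by 1.18 on the log2 scale (SE 0.061, limma adjusted p = 6.62e-09). It passed the filter through the WT libraries alone, as did Eif4ebp3, so for both genes a difference was bound to appear. Eef1aknmt and Eif5a2 reached 1 FPKM in every WT library but not in every CKO library, so the filter may favour a difference for them too. Among the methyltransferases of eEF1A, Eef1akmt1 had 12.8, 11.4 and 13.4 FPKM in CKO, against 18.2, 17.7 and 17.7 FPKM in WT, and fell by 0.49 on the log2 scale. Eef1aknmt fell by 0.90 and Eef1akmt2 rose by 0.28. Eef1akmt4 read 1.39 ± 0.116 FPKM in CKO and 1.32 ± 0.193 FPKM in WT and was not called, nor was Eef2kmt, the eEF2 methyltransferase, at a limma adjusted p of 0.0586, though it was called lower without CKO replicate 3 or WT replicate 3 (lowest adjusted p = 0.0231). Eef1akmt3 reached at most 0.0998 FPKM in any library.

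Factors of start-codon selection rose, with 1 exception. Eif1, which keeps the scanning ribosome from stopping at a wrong codon, had 122, 126 and 128 FPKM in CKO, against 57.5, 60.8 and 60.4 FPKM in WT. The CKO mean was 2.105 times the WT mean (log2 fold change 1.06, SE 0.033, limma adjusted p = 7.95e-11; chromosome 11, 100319885 to 100322096). Its paralogue Eif1b had 44.2, 44.6 and 48.2 FPKM in CKO, against 30.8, 31.5 and 31.1 FPKM in WT, which is 0.54 higher on the log2 scale. The ratio of Eif1 to Eif1b was 2.76, 2.82 and 2.66 in the CKO libraries and 1.87, 1.93 and 1.94 in the WT libraries, so the more abundant paralogue rose further. The 2 copies of eIF1A went opposite ways. Eif1ax, the X-linked copy, had 15.4, 16.3 and 15.6 FPKM in CKO, against 9.40, 9.47 and 8.67 FPKM in WT (log2 fold change 0.72, SE 0.047, limma adjusted p = 5.78e-08). Eif1a, the autosomal copy, averaged 26.5 ± 1.09 FPKM in CKO and 43.4 ± 1.62 FPKM in WT (log2 fold change -0.69, limma adjusted p = 2.83e-08). Both differences exceeded the spread between libraries, and Eif1a, the copy that fell, was the more abundant in both groups. The 2 copies are alike in sequence and reads may be split between them. Eif1ad, which carries an eIF1A-like domain, had 6.48, 6.39 and 5.94 FPKM in CKO, against 3.66, 3.83 and 4.49 FPKM in WT, and rose by 0.54.

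**Figure D3:**
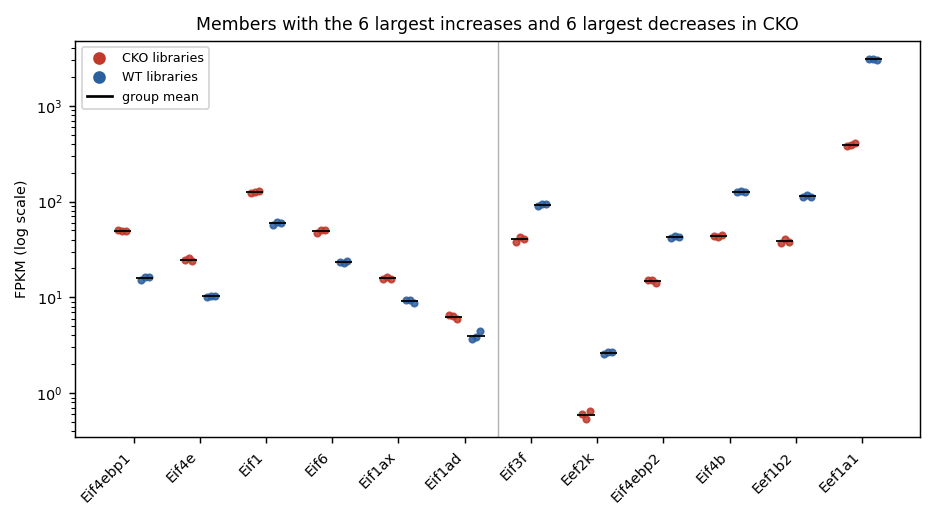
FPKM on a log axis in each library of the 6 members with the largest increases (left of the line) and the 6 with the largest decreases (right of it); points are libraries, CKO left and WT right of each gene, and bars are group means. The groups do not overlap for any of the 12 genes, nor for 82.5% of all tested genes. The 12 were picked as extremes among called members, and Eef2k passed the filter through WT alone, so this is no support. Eef1a1 has 377 to 412 FPKM in CKO against 2997 to 3089.8 FPKM in WT.

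The 3 subunits of eIF2 did not move together. Eif2s1, the alpha subunit that stress kinases phosphorylate, averaged 19.1 ± 0.668 FPKM in CKO and 15.7 ± 0.521 FPKM in WT, and rose by 0.27 on the log2 scale. Eif2s2, the beta subunit, rose by 0.21. Eif2s3x, the X-linked gamma subunit that binds the initiator tRNA, had 25.3, 21.9 and 23.5 FPKM in CKO, against 36.9, 37.9 and 35.4 FPKM in WT. This gene (X chromosome, 94188707 to 94212862) fell by 0.62 (SE 0.051, limma adjusted p = 4.23e-07). The Y-linked genes Ddx3y and Kdm5d had no reads in any library of either group. Uty, also Y-linked, had 2 reads in WT replicate 3 and none elsewhere, and Xist was not among the genes measured. Among factors that can bring tRNA without eIF2, Eif2a fell to 6.62 ± 0.102 FPKM in CKO, against 14.1 ± 0.320 FPKM in WT (log2 fold change -0.98), while Eif2d rose by 0.21.

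All 5 subunits of eIF2B, which reloads eIF2 with GTP, were higher in mean. Of these 4 passed the test and Eif2b4 did not (9.49 ± 0.888 FPKM in CKO and 8.74 ± 0.575 FPKM in WT, limma adjusted p = 0.158), although it was higher after median-of-ratios scaling. The most abundant, Eif2b2, had 24.18, 24.73 and 25.002 FPKM in CKO, against 16.65, 17.35 and 16.97 FPKM in WT (log2 fold change 0.51, SE 0.036, limma adjusted p = 1.25e-07). Eif2b1 and Eif2b5, which holds the catalytic domain, rose by 0.49 and 0.45. Eif2b3 rose by 0.19, but the call was lost without CKO replicate 1, CKO replicate 3 or WT replicate 3, at limma adjusted p up to 0.110. Among all tested genes 30.5% were called higher and 50.5% lower. The 3 eIF2 alpha kinases among the members fell. Eif2ak3 (PERK), which senses unfolded protein in the endoplasmic reticulum, averaged 2.63 ± 0.343 FPKM in CKO and 5.79 ± 0.206 FPKM in WT (log2 fold change -0.91). Eif2ak4 (GCN2), which senses uncharged tRNA, fell by 0.50. Eif2ak1 (HRI), the haem-regulated kinase, had 12.4 FPKM in each CKO library, against 14.9, 14.5 and 14.7 FPKM in WT (log2 fold change -0.23, limma adjusted p = 1.70e-04), and after median-of-ratios scaling it was not called (adjusted p = 0.1003).

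Of 13 tested subunits of eIF3, 9 fell and 1 rose, against 50.5% lower and 30.5% higher among all tested genes. After median-of-ratios scaling 9 were lower and 3 higher. In mammals 8 subunits (a, c, e, f, h, k, l and m) form a structural core called the PCI/MPN octamer, a textbook grouping that was applied after the values had been seen. Of these 8 genes 7 fell and 1, Eif3c, rose. Eif3f, an MPN-domain subunit, fell most, with 37.8, 43.0 and 41.0 FPKM in CKO, against 90.4, 94.8 and 94.0 FPKM in WT (log2 fold change -1.18, SE 0.044, limma adjusted p = 4.22e-10). Eif3k had 19.1, 20.9 and 19.8 FPKM in CKO, against 43.9, 45.2 and 41.0 FPKM in WT, a log2 fold change of -1.08. Eif3a, the largest subunit, had 29.8, 28.6 and 27.6 FPKM in CKO, against 57.0, 57.2 and 56.7 FPKM in WT, at -0.97. Eif3e changed by -0.87, Eif3m by -0.70 and Eif3l by -0.66. Eif3h, the most abundant subunit, had 92.2, 95.0 and 95.2 FPKM in CKO, against 145, 148 and 152 FPKM in WT (-0.65).

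Eif3c averaged 84.9 ± 0.638 FPKM in CKO and 76.0 ± 1.67 FPKM in WT (log2 fold change 0.16, limma adjusted p = 4.18e-04), and the call was lost after quantile normalization (adjusted p = 0.0955). Outside the octamer, 2 of 5 tested subunits fell, Eif3i at -0.50 and Eif3g at -0.31. That is 40.0%, against 50.5% of all tested genes. Eif3b, the scaffold of the outer module, read 70.8 ± 0.641 FPKM in CKO and 69.1 ± 0.313 FPKM in WT. Eif3d, which can bind the cap of some mRNAs, read 7.62 ± 0.407 FPKM in CKO and 7.53 ± 0.287 FPKM in WT. Both were not called, but were higher in CKO after median-of-ratios scaling, at 0.20 and 0.16. Eif3j1 was not called (limma adjusted p = 0.0983), and its near-identical copy Eif3j2 reached at most 0.343 FPKM. The most abundant subunits by FPKM were Eif3h, Eif3c and Eif3b in CKO, and Eif3h, Eif3f and Eif3c in WT.

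**Figure D4:**
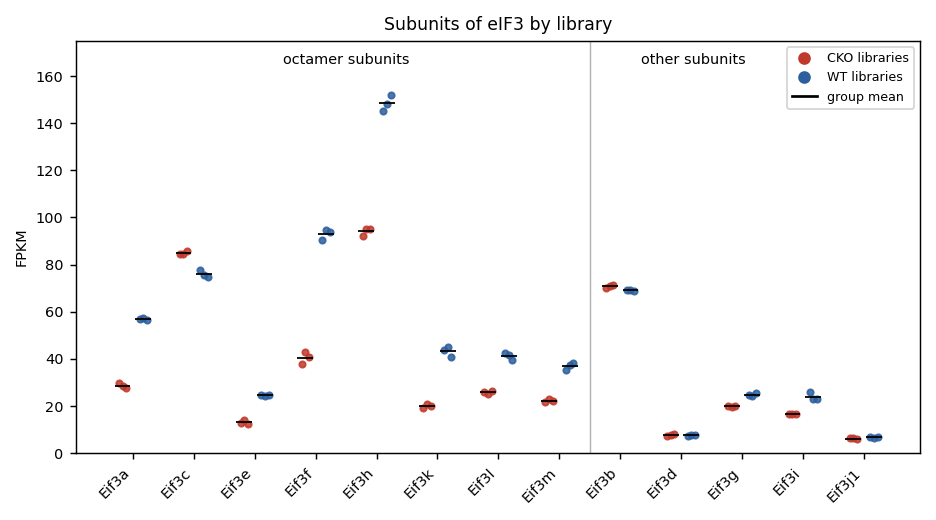
FPKM in each library of the 13 tested eIF3 subunits, octamer subunits left of the line; points are libraries, CKO left and WT right of each gene, and bars are group means. Within the octamer 7 subunits have CKO values under all WT values, Eif3f at 37.8 to 43.0 FPKM against 90.4 to 94.8 FPKM, while Eif3c and Eif3b lie slightly above theirs. The groups did not overlap for 82.5% of all tested genes either.

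In the cap-binding complex the cap-binding protein itself rose and a cofactor of its helicase fell. Eif4e had 24.5, 25.5 and 24.2 FPKM in CKO, against 10.1, 10.4 and 10.3 FPKM in WT, 2.41 times the WT mean (log2 fold change 1.19, SE 0.039, limma adjusted p = 1.16e-10; chromosome 3, 138526179 to 138559696). Its relatives were not called. Eif4e2, which represses translation at the cap, read 10.4 ± 0.119 FPKM in CKO and 11.2 ± 0.406 FPKM in WT and was not called (limma adjusted p = 0.0513), but was lower without the filter, with the stricter filter of a mean of 5 FPKM, and without WT replicate 2 (lowest adjusted p = 0.0386). Eif4e3 had 7.96, 8.48 and 7.77 FPKM in CKO, against 7.79, 7.73 and 7.66 FPKM in WT (limma adjusted p = 0.2996; higher after median-of-ratios scaling, adjusted p = 0.00177). Eif4e1b, known from oocytes, had no reads in any library, which allows at most 0.0863 FPKM in the shallowest one.

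Eif4b, which stimulates the eIF4A helicase, had 43.1, 43.0 and 44.4 FPKM in CKO, against 125, 129 and 124 FPKM in WT. The CKO mean was 34.5% of the WT mean (log2 fold change -1.51, SE 0.030, limma adjusted p = 1.90e-12; chromosome 15, 102073773 to 102097173). The helicase genes changed little. Eif4a1 had 123, 118 and 118 FPKM in CKO, against 142, 141 and 144 FPKM in WT (log2 fold change -0.26), and Eif4a2 had 41.1, 42.2 and 40.8 FPKM in CKO, against 43.6, 38.6 and 42.6 FPKM in WT, with overlapping groups. Eif4a2 was not called (limma adjusted p = 0.890), but was higher at 0.16 after median-of-ratios scaling. Eif4h, another helicase cofactor, rose by 0.13, a call lost after quantile normalization (adjusted p = 0.0891).

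The scaffold genes went apart. Eif4g1, the main scaffold, had 56.2, 55.3 and 56.0 FPKM in CKO, against 72.3, 69.4 and 70.5 FPKM in WT (log2 fold change -0.34, SE 0.030). Eif4g3 fell by 0.20 and was not called after median-of-ratios scaling. Eif4g2 (DAP5), a scaffold that lacks the eIF4E binding site, had 117, 113 and 113 FPKM in CKO, against 76.9, 81.3 and 78.8 FPKM in WT (log2 fold change 0.53, SE 0.032, limma adjusted p = 3.16e-08). The ratio of Eif4g2 to Eif4g1 was 2.09, 2.04 and 2.01 in the CKO libraries and 1.06, 1.17 and 1.12 in the WT libraries. Eif4a3, the exon junction helicase, had 21.5, 22.7 and 22.5 FPKM in CKO, against 26.9, 27.5 and 28.1 FPKM in WT, and fell by 0.30. Its copies Eif4a3l1 and Eif4a3l2 had no reads.

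The inhibitors of eIF4E went opposite ways. Eif4ebp1 (4E-BP1) had 50.2, 49.8 and 49.3 FPKM in CKO, against 15.2, 16.4 and 16.3 FPKM in WT, 3.12 times the WT mean. It rose more than any other member, by 1.58 on the log2 scale (SE 0.038, limma adjusted p = 8.74e-12; chromosome 8, 27260329 to 27276674). Eif4ebp2 (4E-BP2) went the other way, with 15.04, 15.06 and 13.98 FPKM in CKO, against 41.2, 43.6 and 42.7 FPKM in WT (log2 fold change -1.47, SE 0.041, limma adjusted p = 3.07e-11; chromosome 10, 61428491 to 61452661). The more abundant inhibitor was thus Eif4ebp1 in CKO and Eif4ebp2 in WT. Eif4ebp3 was low, with 0.706, 0.436 and 0.302 FPKM in CKO, against 1.02, 1.72 and 1.53 FPKM in WT. The 3 inhibitor genes and Eif4enif1, which carries eIF4E into the nucleus and fell by 0.25, summed to 70.5 to 72.4 FPKM in CKO and 65.5 to 69.9 FPKM in WT. Eif4enif1 was not called after median-of-ratios scaling.

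Of the 5 genes grouped as subunit joining and eIF5A 3 rose and 2 fell. These are 60.0% and 40.0%, against 30.5% and 50.5% of all tested genes. Eif5a2 reached 1 FPKM in every WT library but not in every CKO library. Eif6, which keeps the large subunit from joining too early and takes part in its assembly, had 47.3, 50.1 and 50.2 FPKM in CKO, against 23.2, 22.8 and 23.7 FPKM in WT (log2 fold change 1.05, SE 0.036, limma adjusted p = 1.96e-10; chromosome 2, 155819832 to 155826925). Eif5a, the hypusine-bearing factor that helps the ribosome through difficult stretches, had 159.7, 159 and 166 FPKM in CKO, against 119, 123 and 119 FPKM in WT, a log2 fold change of 0.42. Its paralogue Eif5a2 averaged 1.14 ± 0.155 FPKM in CKO and 2.51 ± 0.112 FPKM in WT. Eif5, which triggers GTP hydrolysis on eIF2, had 47.1, 46.1 and 44.3 FPKM in CKO, against 38.8, 36.7 and 38.4 FPKM in WT, and rose by 0.27. Eif5b, which joins the subunits, fell by 0.25 and was not called after median-of-ratios scaling.

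Ratios between paired factors were compared within libraries for 8 pairs, where scaling between libraries has no effect. In each of the 8 the groups did not overlap. The levels of 82.5% of all tested genes did not overlap either, and the members paired were chosen with earlier results known. The lack of overlap is thus no support for shifts particular to these pairs. This holds above all for Eef2k to Eef2, since Eef2k passed the filter through WT alone. For each pair, the exact permutation p was 0.1 (two-sided), again at the limit of this design, and 0.1 after Benjamini-Hochberg adjustment over the 8. The ratio of Eef1a1 to Eef2 was 0.821, 0.848 and 0.875 in the CKO libraries and 3.36, 3.22 and 3.33 in the WT libraries, so Eef2 exceeded Eef1a1 in CKO and the order was reversed in WT. That of Eif4ebp1 to Eif4e averaged 2.01 ± 0.0518 in CKO and 1.55 ± 0.0460 in WT (SD, n = 3 each). The ratio of Eif4e3 to Eif4e averaged 0.326 ± 0.00602 in CKO and 0.753 ± 0.0147 in WT. Smaller shifts were seen for Eif4a1 to Eif4a2 (2.89 ± 0.0960 in CKO and 3.44 ± 0.205 in WT) and Eif5a to Eif5 (3.53 ± 0.197 in CKO and 3.17 ± 0.149 in WT). The log2 ratio of Eef2k to Eef2 differed by -1.14, CKO minus WT.

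**Figure D5:**
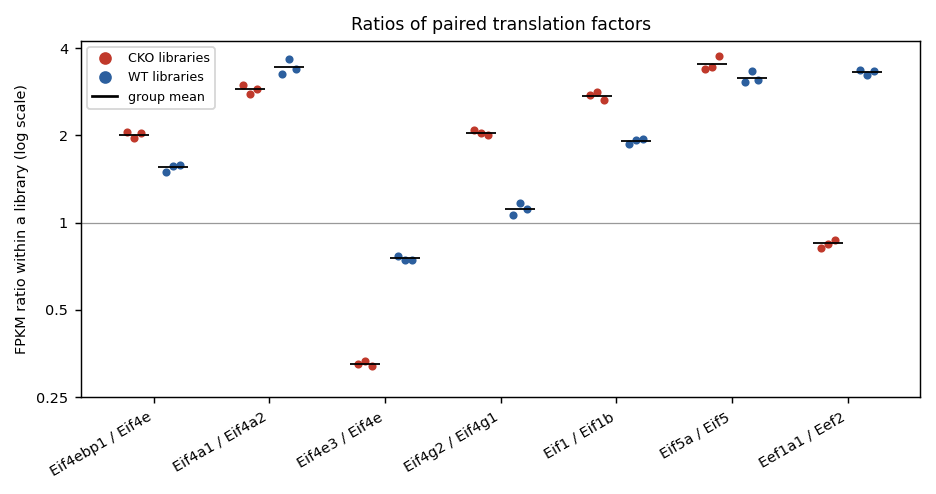
Ratio of FPKM between 2 members within each library, on a log axis, for 7 of the 8 pairs (the ratio of Eef2k to Eef2 is far below the others and is left out); points are libraries, CKO left and WT right, and bars are group means. The ratio of Eef1a1 to Eef2 lies at 0.821 to 0.875 in CKO and at 3.22 to 3.36 in WT.

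The factors encoded by TOP mRNAs fell together. The list holds 10 members taken from general knowledge of human and mouse cells, namely Eef1a1, Eef1a2, Eef1b2, Eef1d, Eef1g, Eef2, Eif3e, Eif3f, Eif3h and Eif4b. Of the 9 tested, 9 were lower, with log2 fold changes from -2.96 to -0.65 and a median of -0.998. Among all tested genes 50.5% were lower, and the median was -0.14. The list was drawn up with earlier results of these data known, so this count describes the list and is no independent support. All 9 were also lower after median-of-ratios scaling, with a median of -0.83. Among the 55 tested factors outside the list 22 rose and 24 fell, with a median of -0.01, and after that scaling 27 were higher and 20 lower, with a median of 0.14. The cytosolic ribosomal protein genes, the classical TOP mRNAs, gave 2 higher and 75 lower of 79 tested, with a median of -1.14, and their mitochondrial counterparts 34 higher and 15 lower of 76 tested, with a median of 0.10 (45 higher and 11 lower after that scaling).

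Start regions were listed in RefSeq for 53 of the 70 members. A C followed by at least 5 pyrimidines on the sense strand, within 20 bases before to 30 bases from a listed start, was present in 13 of 25 members lower in CKO (52.0%) and in 6 of 18 higher in CKO (33.3%). The share was 38.9% of 8070 tested genes and 37.8% of all 27025 genes listed. It was 5 of 6 on the TOP list, the untested Eef1a2 included, and 9 of 20 lower members outside it, and 76.3% of 59 tested ribosomal protein genes. On the opposite strand the same run was found in 32.0% of the lower members and 38.9% of the higher ones, and in 43.6% of tested genes. In all, 7 combinations of window and run length were looked at, and the one above was chosen among them after the values had been seen. Across these 7 settings the sense strand share was 36.0% to 64.0% of lower members, 16.7% to 55.6% of higher members and 26.4% to 43.9% of tested genes, and 33.3% to 83.3% on the TOP list. A match is a description of the sequence, and listed starts may lie some bases from those used in macrophages. Eef1a1 counts among the 5 matches on the TOP list, although its run may lie outside the mRNA.

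Partners of the factors outside the naming rule were looked up from fixed lists. Of 14 genes of the mTOR pathway and the MNK kinases, 4 rose and 8 fell, or 28.6% and 57.1%, near the 30.5% and 50.5% of all tested genes. Ddit4 (REDD1), an inhibitor of mTOR complex 1, averaged 18.2 ± 2.90 FPKM in CKO and 1.36 ± 0.480 FPKM in WT (log2 fold change 3.03). It reached 1 FPKM in every CKO library but not in every WT library, so the filter may favour a difference. Mknk1 and Mknk2, the kinases that phosphorylate eIF4E, changed by -1.20 and -1.11. Pdcd4, which blocks eIF4A, averaged 1.66 ± 0.167 FPKM in CKO and 7.42 ± 0.471 FPKM in WT (-1.66). Larp1, outside the 4 genes with the smallest p and named after its value was seen because it binds TOP mRNAs, rose by 0.69. Mtor itself was not called (limma adjusted p = 0.136). After median-of-ratios scaling 4 genes of this list were higher and 4 lower.

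Of 8 tested eIF2 alpha phosphatase and stress-response genes 6 rose and 1 fell, Trib3 counted. These are 75.0% and 12.5%, against 30.5% and 50.5% of all tested genes. Atf4, whose translation increases when eIF2 is phosphorylated and which activates Eif4ebp1 in other cells, averaged 146 ± 4.30 FPKM in CKO and 55.9 ± 3.83 FPKM in WT (log2 fold change 1.37). Trib3 and Atf5, genes of the same response, rose by 2.04 and 0.82, and the phosphatase catalytic subunit Ppp1cc changed by -0.66. Trib3 reached 1 FPKM in every CKO library but not in every WT library, so the filter may favour a difference. Of 14 genes of poly(A) binding, recycling and release 4 rose and 7 fell, shares near those of all tested genes, and after median-of-ratios scaling 6 were higher and 6 lower. Denr, a recycling factor, rose by 0.94 and the release factor Gspt1 by 0.68, while Pabpc4 and the helicase Ddx3x fell by 0.88 and 0.45.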

How the data were processed

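For each library the deposited table gives FPKM for 21936 genes, per the file headers. The submitters' processing notes name build mm10 and, with no role or order, GATK 4.0.11.0, featureCounts 1.6.2, fastp 0.19.3, Cufflinks, DESeq2 1.22.1, HISAT2 2.1.0 and StringTie 1.3.4d. All 70 members had the same coordinates in GENCODE M21. FPKM times gene length was a whole multiple of 1 step for 100% of values within 0.01 reads, which gave reads per gene. A floor of 3 reads at 1 kb corresponds to 0.163 to 0.195 FPKM, and floors cover counting error only.

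The 9953 genes that reached 1 FPKM in 3 or more libraries were fitted with limma 3.58.1 (eBayes with trend, R 4.3.3) on log2(FPKM + 1). The design held group alone. Fold changes, CKO minus WT, are on that scale, which makes those of low genes too small. The threshold was a Benjamini-Hochberg adjusted p of 0.05 over all genes fitted. Alternatives were pseudocounts of 0.1 and 0.5, no filter, a mean of 5 FPKM or more as filter, quantile normalization, scaling by median of ratios, a threshold of 0.01, a fit without trend, a replicate block, the omission of each library in turn with tested genes held, and limma voom with trimmed-mean scaling on the recovered reads. Permutation tests were exact (Python 3.11.15, scipy 1.17.1). Values in every library are given for the 6 largest and 6 smallest fold changes among called members, the most abundant member of each role and both members of each ratio; up to 4 genes with the smallest p were named per partner list; further values by library were added after seeing them. Start regions were read from the RefSeq promoter table of GRCm38.p6 at the listed gene starts. The members and lists were chosen with earlier results of these data known.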

Additional observations from a re-analysis of the deposited data

How the results depend on the processing

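The counts of 22 higher and 33 lower members stayed within 1.5 times under every alternative run, at 18 to 27 higher and 29 to 35 lower. With 1 library left out they were 21 to 22 higher and 33 to 34 lower. The replicate block gave 22 higher and 33 lower, and same-numbered libraries did not deviate together (correlations of 0.0188, 0.0120 and -0.0388). Such correlations cannot show whether same-numbered libraries were collected or prepared together. The members' median log2 fold change of -0.21 became -0.055 after median-of-ratios scaling, -0.15 after quantile normalization and -0.066 with limma voom, and -0.23 to -0.20 with 1 library left out. The summed FPKM, -1.18 as a log2 ratio, became -1.01 after median-of-ratios scaling, and -1.19 to -1.17 with 1 library left out. With 1 added to both values the log2 ratio of Eif4e3 to Eif4e differed by -1.14 and not -1.21, and that of Eef2k to Eef2 by -0.19 and not -1.14, since Eef2k is below 3 FPKM. The fold change of Eif4a2, near 0, changed sign to 0.16 after median-of-ratios scaling, 0.15 with limma voom, 0.00252 without CKO replicate 3, 0.0276 without WT replicate 1 and 0.0103 without WT replicate 3. Leaving out each library in turn gave it -0.0588 to 0.0276. Among other members not called, the sign changed for Eif3j1 in 3 alternatives, for Eif3d and Eif4e2 in 2 each and for Eif3b and Eef1akmt4 in 1 each.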

Other observations

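Enzymes that feed or modify the factors changed in both directions. Of 19 cytosolic aminoacyl-tRNA synthetases, which charge the tRNAs that eEF1A carries, 10 rose and 5 fell in CKO by limma, with a median log2 fold change of 0.21. These are 52.6% and 26.3%, against 30.5% higher and 50.5% lower among all tested genes. Aars and Kars averaged 17.9 ± 0.0466 and 25.1 ± 0.270 FPKM in CKO, against 10.9 ± 0.363 and 15.6 ± 0.348 FPKM in WT (SD, n = 3 each). Qars and Farsb fell by 0.83 and 0.66. Of 9 translation factors of mitochondria 2 rose, Tufm and Mtrf1, and 2 fell, Guf1 and Gfm2, or 22.2% each. Of 8 enzymes that make hypusine on eIF5A or diphthamide on eEF2, 2 rose and 4 fell. Dohh, which completes hypusine, averaged 0.773 ± 0.0793 FPKM in CKO and 1.35 ± 0.276 FPKM in WT and passed the filter through WT alone, and Dhps, which begins it, averaged 10.3 ± 0.696 FPKM in CKO and 8.70 ± 0.406 FPKM in WT.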
